A study of Homo sapiens with 12 samples.

Results

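The matrix metalloproteinases (MMP genes), the ADAM and ADAMTS metalloproteinases and their tissue inhibitors (TIMP genes) were examined by RNA-seq in A375, an established human melanoma line that carries mutant BRAF. Members were the protein-coding genes whose symbol is MMP, ADAM, ADAMTS or TIMP followed by a number, with the ADAMTS-like genes left out. This gave 66 of the 58347 genes in the count files, namely 23 MMP, 20 ADAM, 19 ADAMTS and 4 TIMP genes. After a filter on low counts, 46 members were tested among 16740 genes: 17 MMP, 11 ADAM, 15 ADAMTS and 3 TIMP genes.

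The cells were exposed for 8 h to DMSO (the vehicle), tretinoin, vemurafenib, or vemurafenib and tretinoin together (the combination), with 3 samples in each of the 4 groups. The labels give 5 µM as the dose in all 4 groups, and do not say separately how much of each drug the combination held. Vemurafenib inhibits the mutant BRAF kinase and so the MAPK pathway, and tretinoin activates retinoic acid receptors, which are transcription factors. Each condition was treated in triplicate, but nothing says whether the replicates were independent cultures, so P-values measure the spread between these samples, which may be technical, and all of them come from a single cell line.

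Metalloproteinases of these families carry a zinc ion in the active site. MMPs are made as latent precursors and, once activated, cut collagens and other proteins of the extracellular matrix, either in secreted form or anchored in the membrane. ADAMs are mostly membrane proteins, and the active ones release the outer parts of growth factors, cytokines and receptors from the cell surface, whereas ADAMTS proteases are secreted and cut proteoglycans, procollagens and other matrix proteins. TIMPs bind and block these enzymes, and TIMP3 stays bound to the matrix and blocks ADAM and ADAMTS enzymes as well as MMPs. In melanoma these genes are mostly studied for invasion and for the release of growth factors. An mRNA level says nothing of precursor activation or protease activity.

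The libraries held 13510235 to 21534377 counts. Vemurafenib exposure was visible in the targets of the MAPK pathway: against DMSO the log2 fold change was -6.07 for DUSP6, -6.55 for SPRY4, -4.67 for ETV5 and -2.76 for ETV4, all called. DHRS3, a retinoid response gene, was higher by 2.91 on the log2 scale with tretinoin. The 2 other retinoid response genes checked were not called with tretinoin alone: CYP26A1 held only 3 to 20 counts per sample, and RARB stood at a log2 fold change of 0.82 (adjusted P = 0.101). DHRS3 and RARB were also higher with vemurafenib alone. Mean normalised counts of DHRS3 were 376 with DMSO, 2821 with tretinoin, 1252 with vemurafenib and 7281 with the combination. In the same order RARB stood at 24.5, 44.6, 171 and 399. Of the melanocytic markers, MITF was present at 245 to 658 counts and S100B at 84 to 206, whereas SOX10 was listed at 0 in all 12 samples and TYR had at most 1 count. SOX10 shares 2.4% of its exon bases with POLR2F on the opposite strand. Whether its 0 comes from the counting or from absent mRNA was not tested. The summed normalised count of 8 melanocytic markers (4 tested) was 504 to 593 with DMSO, 474 to 558 with tretinoin, 794 to 848 with vemurafenib and 728 to 764 with the combination. In the same order it was 77.0 to 113, 77.8 to 86.2, 232 to 269 and 173 to 182 for 4 fibroblast markers (3 tested), and 222 to 293, 166 to 268, 527 to 580 and 481 to 639 for 2 keratinocyte markers. It was 13.4 to 31.8, 36.7 to 67.7, 41.4 to 57.6 and 56.5 to 82.6 for 2 leukocyte markers, of which CD68 had at most 2 counts, and 18.1 to 40.3, 31.7 to 43.1, 42.4 to 53.6 and 35.3 to 51.8 for 2 endothelial markers. Markers within a sum did not all move together. From DMSO to vemurafenib the mean normalised count of MITF went from 318 to 586, PMEL from 20.9 to 14.3 and S100B from 164 to 167. Of the endothelial markers, PECAM1 went from 17.4 to 9.44 and VWF from 8.73 to 37.6. The part of these markers in the results was not tested, and in bulk RNA fewer cells of a type cannot be told apart from less RNA per cell. Tretinoin replicate 1 stood apart from the other tretinoin samples: the chi-square statistic per degree of freedom between raw counts was 19.5 and 22.4 against them, and 2.59 between those 2, so tretinoin results are also given without it.

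Levels between genes were compared per length, as FPKM (TMM-scaled counts divided by library size and by exon length). The TIMP genes had the highest summed level, 371 ± 35.3 FPKM with DMSO (SD, n = 3), against 77.2 ± 2.14 for the ADAM genes, 75.2 ± 1.68 for the MMP genes and 13.7 ± 0.856 for the ADAMTS genes. TIMP3 (195 ± 20.9 FPKM) and TIMP1 (161 ± 17.2) made up 52.4% and 43.3% of the TIMP sum with DMSO. ADAM15 (34.7 ± 1.34 FPKM), MMP2 (30.4 ± 1.53), ADAM9 (18.7 ± 0.362) and MMP1 (12.2 ± 1.67) followed among the proteases with DMSO, and ADAM10 did not differ from MMP1 beyond their spread. MMP2, a gelatinase, stayed the leading MMP in all 4 groups at 29.3 to 32.9 FPKM. ADAM15, ADAM9 and ADAM10 kept the first 3 places among the ADAM genes in all 4 groups.

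The summed TIMP level lay between 445 and 495 FPKM with tretinoin, between 144 and 154 with vemurafenib and between 162 and 187 with the combination, against 337 to 407 with DMSO. The ADAMTS sum was 13.0 to 14.6 FPKM with DMSO and higher with vemurafenib, at 35.5 to 37.8, and with the combination, at 39.2 to 42.6. In neither family did the samples with vemurafenib, alone or combined, overlap those without it. The MMP and ADAM sums differed far less between groups: the MMP means ran from 67.0 ± 1.32 FPKM with the combination to 75.2 ± 1.68 with DMSO, and the ADAM means from 76.1 ± 3.51 with the combination to 83.1 ± 5.44 with tretinoin. These sums are descriptions and were not tested.

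**Figure D1:**
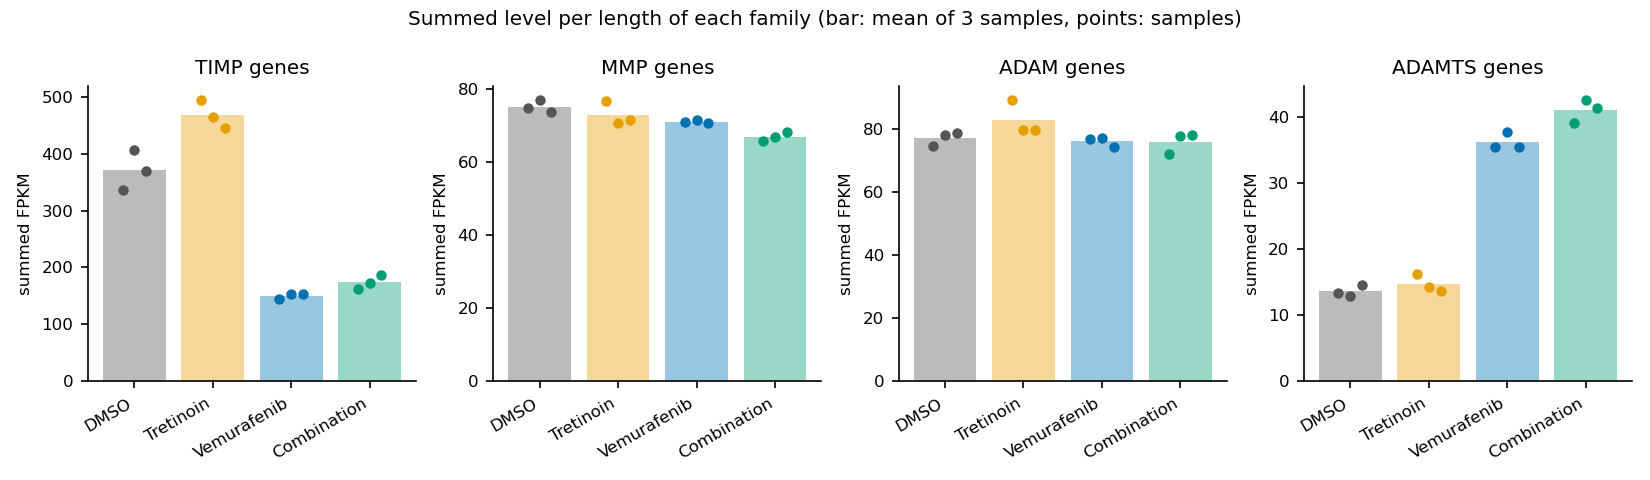
Summed FPKM of all TIMP, MMP, ADAM and ADAMTS members (y axis, linear from 0) in each treatment group (x axis), with bars for the mean of 3 samples and points for the samples. The mean TIMP sum was 371 FPKM with DMSO and 151 with vemurafenib, the ADAMTS sum was 13.7 and 36.3, and the mean MMP and ADAM sums of all groups lay between 67.0 and 83.1.

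Each drug group was compared with DMSO by the quasi-likelihood test of edgeR, with P-values adjusted (Benjamini-Hochberg) over all 16740 genes, and a gene was called at an adjusted P below 0.05. With vemurafenib 13 of 46 members rose (28.3%) and 11 fell (23.9%), against 26.4% and 26.3% of all genes tested. With the combination 15 rose (32.6%) and 11 fell (23.9%), against 27.1% and 26.5% of all genes. The members' shares were thus near the background of a drug response that moved about as many genes in each direction. Median log2 fold changes of the members were -0.02 with vemurafenib and 0.11 with the combination, and 0.02 and 0.03 over all genes. The comparisons share the DMSO samples: 11 members were called up in both, 9 were called down in both, 4 were called with vemurafenib only and 6 with the combination only, and 0 were called in opposite directions. With library totals as the only scaling, the median of all genes moved to 0.21 with vemurafenib and 0.19 with the combination, and the member calls became 20 up and 9 down, and 18 up and 9 down. The calls over all genes shifted the same way, to 6575 up and 2628 down with vemurafenib and 6242 up and 2916 down with the combination.

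**Figure D2:**
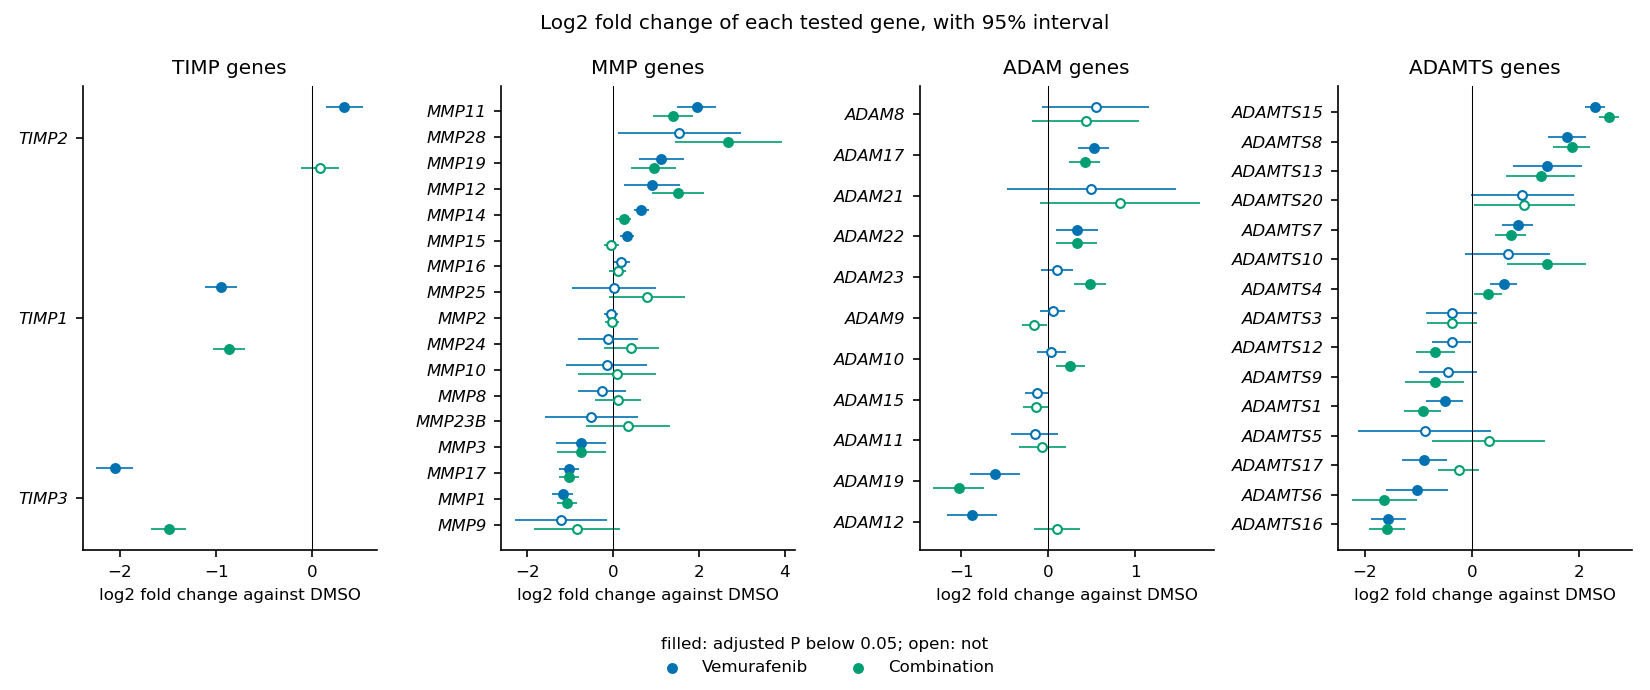
Log2 fold change against DMSO (x axis, with 95% interval) of the 46 tested members (y axis), in blue for vemurafenib and green for the combination, in 4 panels by family with their own x ranges. Filled points had an adjusted P below 0.05. ADAMTS15 with vemurafenib (2.30) and TIMP3 with vemurafenib (-2.06) lie at the 2 ends of the called values in that comparison.

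Among the inhibitors, 2 of 3 tested TIMP genes fell with vemurafenib and 1 rose, against 26.3% and 26.4% of all genes tested. TIMP3 is on chromosome 22 (GRCh38 positions 32801701 to 32863043, plus strand). In order of replicate, TIMP3 had 14212, 17416 and 17001 normalised counts with DMSO, 27177, 25295 and 23261 with tretinoin, 3791, 4010 and 3900 with vemurafenib, and 5262, 5854 and 6139 with the combination. The 4 groups did not overlap, with tretinoin highest and vemurafenib lowest. TIMP3 fell by 2.06 on the log2 scale with vemurafenib (SE 0.09, adjusted P = 4.93e-12, 4.16-fold lower) and by 1.49 with the combination (SE 0.09, adjusted P = 2.66e-10). It rose with tretinoin (log2 0.64, SE 0.09, adjusted P = 0.000182, and 0.58 with adjusted P = 1.97e-05 without tretinoin replicate 1), and it was higher with the combination than with vemurafenib alone (log2 0.56, SE 0.09, adjusted P = 0.000534).

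TIMP1, on the X chromosome (47582313 to 47586789, plus strand), blocks most secreted MMPs. Normalised counts of TIMP1 were 4231, 5035 and 4180 with DMSO, 4200, 4110 and 4227 with tretinoin, 2220, 2345 and 2413 with vemurafenib, and 2301, 2404 and 2649 with the combination. All 6 samples with vemurafenib lay below all 6 without it. The fall was 0.95 on the log2 scale with vemurafenib (SE 0.08, adjusted P = 2.22e-08) and 0.87 with the combination (SE 0.08, adjusted P = 5.61e-08). TIMP2 takes part in the activation of the MMP2 precursor by MMP14 besides blocking MMPs. It had 1471, 1796 and 1658 normalised counts with DMSO, 1803, 1420 and 1394 with tretinoin, 1972, 2149 and 2078 with vemurafenib, and 1670, 1702 and 1814 with the combination. The vemurafenib samples were the highest, and TIMP2 rose there (log2 0.33, SE 0.09, adjusted P = 0.00599), while with the combination the log2 fold change was 0.08 (95% interval -0.12 to 0.27, adjusted P = 0.517). TIMP2 shares 10.0% of its exon bases with overlapping genes, CEP295NL among them. TIMP4 was not tested, with at most 4 counts in any sample. By level per length, TIMP3 went from first to second place in the family: with vemurafenib it stood at 46.8 ± 1.32 FPKM, or 31.1% of the TIMP sum, against 83.4 ± 3.51 for TIMP1, and with the combination at 69.1 ± 5.37 against 87.9 ± 6.40.

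**Figure D3:**
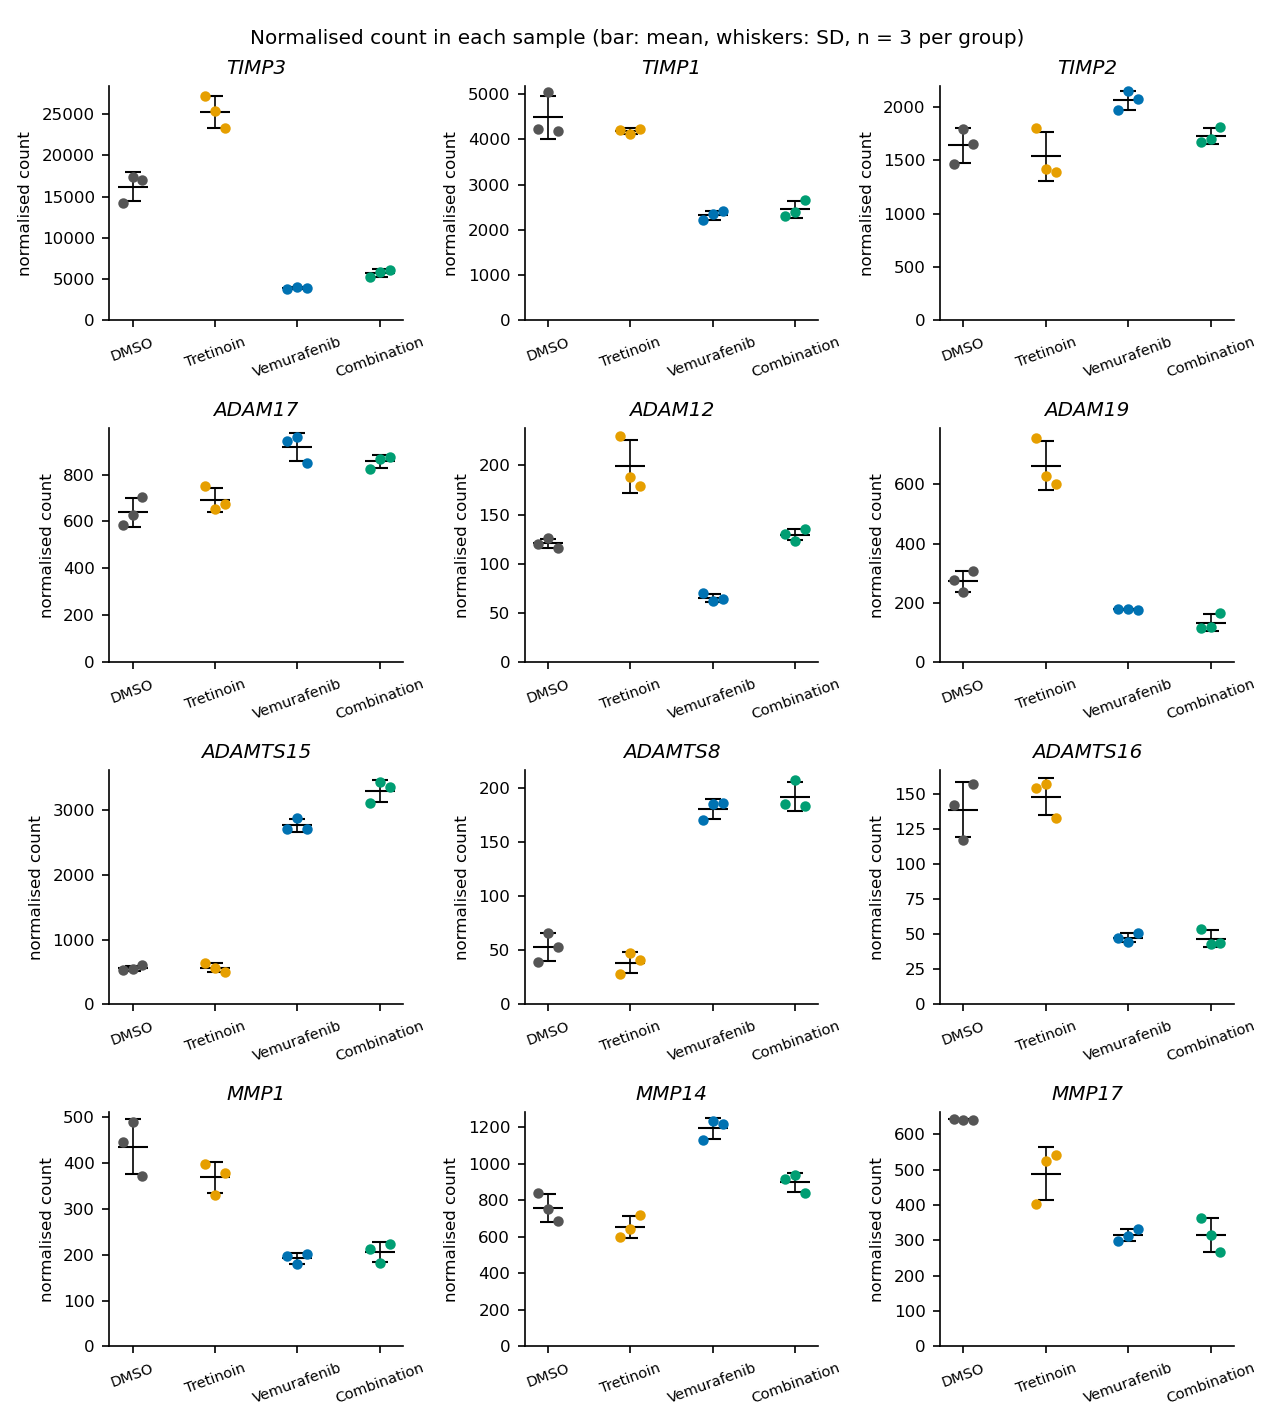
Normalised count (y axis, linear from 0, with its own range in each panel) of 12 members in each of the 12 samples, grouped by treatment (x axis), with the mean as a bar and the SD as whiskers (n = 3 per group). TIMP3 spans 3791 to 27177 and its 4 groups do not overlap. ADAM19 is highest with tretinoin alone, at 603 to 758, and lowest with the combination, at 117 to 166.

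The 250 bases before the RefSeq start of TIMP3 are shown because this gene had the highest level per length of all members with DMSO and moved with both drugs. The sequence is from RefSeq (GRCh38.p14), chr22:32801455-32801704 on the plus strand, 5′ to 3′, with the ETS core in capitals. The ETS core is the shortest common letter run of binding sites of ETS transcription factors, to which ETV4 and ETV5 belong, and was searched as GGAA on both strands.
TIMP3: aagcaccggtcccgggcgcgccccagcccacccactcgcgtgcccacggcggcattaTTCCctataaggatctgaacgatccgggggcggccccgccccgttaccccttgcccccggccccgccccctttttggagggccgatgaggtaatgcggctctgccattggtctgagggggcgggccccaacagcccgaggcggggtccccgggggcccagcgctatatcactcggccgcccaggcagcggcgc
The window held 1 such run and 26 CpG dinucleotides at 72.4% GC, against a median of 11 CpG dinucleotides and 58% GC over all promoter windows. The ETS core was in 92.7% of all promoter windows, and its part in the changes of TIMP3 was not tested.

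Of 15 tested ADAMTS genes, 5 rose (33.3%) and 4 fell (26.7%) with vemurafenib, against 26.4% and 26.3% of all genes tested. ADAMTS15, which cuts the proteoglycans aggrecan and versican, is on chromosome 11 (130448974 to 130476641, plus strand). ADAMTS15 stood at 531, 545 and 603 normalised counts with DMSO, 641, 564 and 499 with tretinoin, 2698, 2866 and 2709 with vemurafenib, and 3096, 3425 and 3350 with the combination. DMSO and tretinoin samples overlapped, and every sample with vemurafenib stood far above them. The log2 fold change was 2.30 with vemurafenib (SE 0.09, 4.92-fold, adjusted P = 5.60e-13) and 2.55 with the combination (SE 0.09, 5.87-fold, adjusted P = 1.25e-13). The combination lay above vemurafenib alone in all samples, at a log2 difference of 0.25 (SE 0.08) that missed the threshold (adjusted P = 0.0838). ADAMTS15 alone made up 39.9% of the ADAMTS sum of FPKM with DMSO, 74.0% with vemurafenib and 78.1% with the combination.

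ADAMTS8, another proteoglycan-cutting member, lies on the opposite strand next to ADAMTS15 (chromosome 11, 130404925 to 130428993), with 19980 bases between the 2 genes. In order of replicate, ADAMTS8 had 39.7, 66.0 and 53.5 normalised counts with DMSO, 27.9, 47.3 and 40.6 with tretinoin, 170, 185 and 186 with vemurafenib, and 185, 208 and 184 with the combination. ADAMTS8 rose in the same groups as its neighbour, by 1.77 on the log2 scale with vemurafenib (SE 0.17, adjusted P = 1.14e-07) and by 1.86 with the combination (SE 0.17, adjusted P = 4.99e-08). Of the 7 proteoglycan-cutting ADAMTS genes, all of them tested, vemurafenib raised 3 and lowered 1, and the combination raised 3 and lowered 2. Over all genes tested, 26.4% rose and 26.3% fell with vemurafenib, and 27.1% and 26.5% with the combination.

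The third that rose was ADAMTS4, an aggrecanase. Normalised counts of ADAMTS4 were 174, 136 and 168 with DMSO, 231, 224 and 224 with tretinoin, 244, 269 and 206 with vemurafenib, and 203, 182 and 205 with the combination. The 3 drug groups all lay above DMSO. The log2 fold change was 0.50 with tretinoin (adjusted P = 0.0224), 0.59 with vemurafenib (adjusted P = 0.000508) and 0.30 with the combination (adjusted P = 0.0451), each with SE 0.12. The combination call was lost without any single of 7 libraries (DMSO replicates 2 and 3, tretinoin replicates 2 and 3, vemurafenib replicate 1, combination replicates 1 and 3), with an adjusted P up to 0.192. It was also lost under DESeq2, with no filter on low counts and with a replicate block. ADAMTS4 shares stretches of 159 and 151 bases at 98.7% identity with GNRHR2 and PCBP1-AS1. ADAMTS1, which also cuts proteoglycans, fell with vemurafenib (log2 -0.51, SE 0.16, adjusted P = 0.0141) and with the combination (log2 -0.92, SE 0.17, adjusted P = 0.000168). The vemurafenib call on ADAMTS1 was lost without DMSO replicate 3 or vemurafenib replicate 3 (adjusted P up to 0.0738). ADAMTS9 fell with the combination (log2 -0.69, SE 0.26, adjusted P = 0.0340), a call lost without any of the 3 DMSO replicates or combination replicates 2 or 3 (adjusted P up to 0.0843).

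Of the 7 other tested ADAMTS genes outside the procollagen processing group, vemurafenib raised 2 and lowered 3, and the combination raised 3 and lowered 3. The shares over all genes tested were 26.4% up and 26.3% down with vemurafenib, and 27.1% and 26.5% with the combination. ADAMTS16, a less studied member, had 142, 117 and 157 normalised counts with DMSO, 154, 157 and 133 with tretinoin, 47.0, 44.4 and 51.1 with vemurafenib, and 53.8, 42.9 and 43.4 with the combination. Every sample with vemurafenib was far below every sample without it. ADAMTS16 fell by 1.56 on the log2 scale with vemurafenib (SE 0.16, adjusted P = 2.87e-07) and by 1.58 with the combination (SE 0.16, adjusted P = 1.93e-07). ADAMTS6, a protease of fibrillin microfibrils, had 45.5, 85.6 and 104 normalised counts with DMSO, 78.3, 72.6 and 78.3 with tretinoin, 47.0, 35.7 and 33.7 with vemurafenib, and 35.8, 25.2 and 16.4 with the combination. It fell by 1.02 with vemurafenib (SE 0.27, adjusted P = 0.00452), although vemurafenib replicate 1 lay above DMSO replicate 1, and by 1.64 with the combination (SE 0.29, adjusted P = 0.000126), where the groups did not overlap.

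ADAMTS13, which cuts von Willebrand factor, had 17.5, 17.1 and 13.4 normalised counts with DMSO, 27.9, 13.7 and 27.8 with tretinoin, 47.9, 39.2 and 39.1 with vemurafenib, and 51.8, 37.0 and 28.7 with the combination. Samples with vemurafenib were all higher than those with DMSO, and ADAMTS13 rose by 1.40 (SE 0.31, adjusted P = 0.000921) and 1.28 (SE 0.31, adjusted P = 0.00191) on the log2 scale. ADAMTS10, a microfibril-associated member, had 11.7, 6.11 and 8.59 normalised counts with DMSO, 6.63, 8.41 and 8.92 with tretinoin, 10.3, 16.5 and 15.2 with vemurafenib, and 30.9, 21.0 and 18.8 with the combination. It rose with the combination (log2 1.39, SE 0.35, adjusted P = 0.00264). ADAMTS10 held 5 to 10 counts per sample without vemurafenib and 11 to 31 with it. It passed the low-count filter through the groups where it is high, so this call is no independent support. With vemurafenib alone the log2 fold change was 0.66 (SE 0.38, adjusted P = 0.15). ADAMTS7, which cuts cartilage oligomeric matrix protein, rose with vemurafenib (log2 0.85, adjusted P = 5.17e-05) and with the combination (log2 0.72, adjusted P = 0.000268). ADAMTS12, a related enzyme, fell with the combination (log2 -0.69, adjusted P = 0.00273), and ADAMTS17 fell with vemurafenib (log2 -0.89, adjusted P = 0.00109) while its log2 fold change with the combination was -0.24 (adjusted P = 0.274). The procollagen-processing gene ADAMTS3 was not called in either (log2 -0.38 in both), and ADAMTS2 and ADAMTS14 were not tested.

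Of the 17 tested MMP genes, 5 rose (29.4%) and 3 fell (17.6%) with vemurafenib, and likewise 5 rose and 3 fell with the combination. Over all genes tested, 26.4% rose and 26.3% fell with vemurafenib, and 27.1% and 26.5% with the combination. MMP1, the interstitial collagenase, is on chromosome 11 (102789920 to 102798160, minus strand). MMP1 stood at 445, 489 and 371 normalised counts with DMSO, 397, 330 and 378 with tretinoin, 196, 178 and 201 with vemurafenib, and 212, 182 and 224 with the combination. The 6 samples with vemurafenib were all under the 6 without it. MMP1 fell by 1.18 on the log2 scale with vemurafenib (SE 0.12, adjusted P = 2.11e-07) and by 1.08 with the combination (SE 0.12, adjusted P = 5.06e-07). The other tested collagenase, MMP8, was not called (log2 -0.26 and 0.10), nor was MMP2 (log2 -0.05 and -0.03, each with SE 0.08). The other gelatinase, MMP9, held 3 to 13 counts per sample, and its log2 fold change with vemurafenib was -1.22 (SE 0.51, adjusted P = 0.0541). MMP9 shares 18.4% of its exon bases with overlapping genes, and MMP1 7.6%, and the counting ignored strand.

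MMP1 lies in a cluster of 9 MMP genes on chromosome 11 (102520508 to 102955734), all on the minus strand, of which 5 were tested. These did not move together. MMP1 and MMP3, a stromelysin, fell with vemurafenib, MMP12, the macrophage elastase, rose, and MMP8 and MMP10 were not called. MMP3 is 37640 bases from MMP1. It fell by 0.75 on the log2 scale with vemurafenib (SE 0.28, adjusted P = 0.0302) and by 0.74 with the combination (SE 0.27, adjusted P = 0.0292), with 17 to 46 counts per sample. The MMP3 calls were lost without DMSO replicate 3 (log2 -0.54 in both, adjusted P = 0.169 and 0.168), without vemurafenib replicates 1 or 3 in the first comparison, and without combination replicates 1 or 2 in the second, and under DESeq2 (adjusted P = 0.0754 and 0.0720). MMP12 had 16.3, 17.1 and 10.5 normalised counts with DMSO, 11.9, 15.8 and 21.8 with tretinoin, 25.4, 24.4 and 31.5 with vemurafenib, and 36.8, 35.3 and 51.6 with the combination. The combination was highest in all samples, and every vemurafenib sample was above every DMSO and tretinoin sample. MMP12 rose with vemurafenib (log2 0.90, SE 0.31, adjusted P = 0.0214) and with the combination (log2 1.52, SE 0.29, adjusted P = 0.000268). The vemurafenib call on MMP12 was lost without DMSO replicate 3 or vemurafenib replicate 3 (adjusted P up to 0.117) and under DESeq2 (adjusted P = 0.0544).

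MMP11 (stromelysin-3) showed the largest rise among the called MMP genes with vemurafenib. In order of replicate, MMP11 had 28.0, 29.3 and 22.9 normalised counts with DMSO, 23.9, 13.7 and 29.7 with tretinoin, 111, 108 and 88.1 with vemurafenib, and 67.7, 74.8 and 66.4 with the combination. The combination lay between DMSO and vemurafenib without overlap. The log2 fold change was 1.95 with vemurafenib (SE 0.21, adjusted P = 6.85e-07) and 1.39 with the combination (SE 0.22, adjusted P = 4.56e-05), and their difference of -0.56 (SE 0.18) missed the threshold (adjusted P = 0.0994). MMP11 shares a stretch of 218 bases with CHCHD10. MMP19, whose exons overlap those of TMEM198B over 17.4% of their bases, had 38.5, 28.1 and 27.7 normalised counts with DMSO, 38.5, 63.1 and 35.7 with tretinoin, 81.8, 58.3 and 64.2 with vemurafenib, and 47.8, 69.8 and 62.3 with the combination. It rose by 1.12 (SE 0.25, adjusted P = 0.00112) and 0.94 (SE 0.25, adjusted P = 0.00417) on the log2 scale.

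MMP28 (epilysin) was near the detection limit. Normalised counts of MMP28 were 2.33, 1.22 and 2.86 with DMSO, 5.31, 3.16 and 0.991 with tretinoin, 5.64, 10.4 and 3.26 with vemurafenib, and 21.9, 10.1 and 13.1 with the combination. Every combination sample was above every DMSO sample. MMP28 rose with the combination (log2 2.68, SE 0.59, adjusted P = 0.000974). It reached 10 counts only in the 3 combination samples and vemurafenib replicate 2, so it passed the low-count filter through the group where it is high, and the call is no independent support. The fitted fold change depends on the 6 counts of the 3 DMSO samples: the ratio of summed counts, 50 against 6 and scaled by library size, was 6.64 with an exact 95% counting interval of 2.85 to 19.0, which covers counting error only. With vemurafenib alone, at 21 counts in the 3 samples, the log2 fold change was 1.54 (SE 0.69, adjusted P = 0.0674).

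The membrane-type MMPs are anchored at the cell surface, and all 6 were tested. MMP14, the activator of the MMP2 precursor, is on chromosome 14 (22836557 to 22849027, plus strand). MMP14 stood at 840, 752 and 685 normalised counts with DMSO, 600, 644 and 718 with tretinoin, 1129, 1232 and 1219 with vemurafenib, and 917, 937 and 836 with the combination. Vemurafenib alone was highest in all samples, and the combination overlapped DMSO. MMP14 rose by 0.66 on the log2 scale with vemurafenib (SE 0.09, adjusted P = 5.60e-06) and by 0.24 with the combination (SE 0.09, adjusted P = 0.0249). The second call was lost without DMSO replicate 2 or 3 or combination replicate 1 or 2 (adjusted P up to 0.164). MMP15 had 465, 496 and 471 normalised counts with DMSO, 421, 383 and 397 with tretinoin, 621, 596 and 564 with vemurafenib, and 462, 490 and 439 with the combination. It rose with vemurafenib (log2 0.32, SE 0.08, adjusted P = 0.00253) and stood at -0.04 with the combination (95% interval -0.21 to 0.12, adjusted P = 0.683).

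MMP17, which is held by a lipid anchor, moved in the other direction. In order of replicate, MMP17 had 644, 641 and 640 normalised counts with DMSO, 402, 524 and 540 with tretinoin, 299, 311 and 333 with vemurafenib, and 362, 315 and 268 with the combination. Samples of the 3 drug groups were all lower than DMSO. MMP17 fell by 1.03 on the log2 scale both with vemurafenib (SE 0.11, adjusted P = 7.50e-07) and with the combination (SE 0.11, adjusted P = 6.96e-07). MMP16 was not called against DMSO in these comparisons (log2 0.19 and 0.10), nor were MMP24 and MMP25, which held 3 to 20 counts per sample.

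Of the 11 tested ADAM genes, vemurafenib raised 2 and lowered 2, and the combination raised 4 and lowered 1. The shares over all genes tested were 26.4% up and 26.3% down with vemurafenib, and 27.1% and 26.5% with the combination. ADAM17, the protease that releases TNF and several EGF receptor ligands, had 584, 626 and 706 normalised counts with DMSO, 751, 652 and 674 with tretinoin, 944, 961 and 850 with vemurafenib, and 825, 868 and 874 with the combination. The 6 samples with vemurafenib were the highest. ADAM17 rose by 0.52 on the log2 scale with vemurafenib (SE 0.08, adjusted P = 4.82e-05) and by 0.42 with the combination (SE 0.08, adjusted P = 0.000386). The exons of ADAM17 share 13.6% of their bases with AC073195.1 and IAH1, which lie on the opposite strand. ADAM10, which cuts Notch receptors and cadherins, had 3377, 3451 and 3710 normalised counts with DMSO, 4655, 3878 and 3861 with tretinoin, 3624, 3769 and 3435 with vemurafenib, and 3988, 4327 and 4281 with the combination. Both groups with tretinoin lay above DMSO in all samples. ADAM10 rose with the combination (log2 0.26, SE 0.08, adjusted P = 0.00990), while the value was 0.23 with tretinoin (SE 0.08, adjusted P = 0.0897, and 0.14 with adjusted P = 0.245 without tretinoin replicate 1) and 0.04 with vemurafenib (SE 0.08, adjusted P = 0.696).

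ADAM22 and ADAM23 lack a working protease site and bind LGI proteins. ADAM23 had 317, 364 and 350 normalised counts with DMSO, 434, 412 and 405 with tretinoin, 395, 367 and 344 with vemurafenib, and 452, 487 and 502 with the combination. The combination was highest in all samples, and ADAM23 rose there by 0.48 on the log2 scale (SE 0.09, adjusted P = 0.000141). ADAM22 rose with vemurafenib (log2 0.34, adjusted P = 0.0203) and with the combination (log2 0.33, adjusted P = 0.0218). These calls were lost without DMSO replicate 2, without vemurafenib replicate 1 or 3 in the first comparison (adjusted P up to 0.0859), and without combination replicate 2 in the second (adjusted P = 0.140). Both were also lost with no filter on low counts, and that with the combination under DESeq2. ADAM9 and ADAM15, the ADAM genes with the highest level per length, were not called in any comparison.

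Tretinoin against DMSO asks what the retinoid changed without BRAF inhibition. It moved 5 of 46 members up (10.9%) and 1 down (2.17%), against 3.48% and 2.20% of all genes tested. The members that rose were TIMP3, ADAM12, ADAM19, ADAMTS4 and MMP16, and MMP17 fell. Without tretinoin replicate 1 the counts were 5 up and 0 down, and without DMSO replicate 2 they were 3 up and 0 down. Over all genes the counts were then 523 up and 353 down of 17119, and 273 up and 106 down of 17206. The median log2 fold change of the members was 0.13, against 0.01 over all genes.

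ADAM19 had the largest tretinoin response. It is on chromosome 5 (157395534 to 157575775, minus strand) and encodes a protease that cuts neuregulins. Normalised counts of ADAM19 were 276, 237 and 307 with DMSO, 758, 630 and 603 with tretinoin, 180, 180 and 177 with vemurafenib, and 117, 119 and 166 with the combination. The 4 groups did not overlap, with tretinoin highest and the combination lowest. ADAM19 rose by 1.27 on the log2 scale with tretinoin (SE 0.13, 2.41-fold, adjusted P = 7.31e-06, and 1.16 with adjusted P = 3.28e-07 without tretinoin replicate 1). It fell by 0.61 with vemurafenib (SE 0.14, adjusted P = 0.00108) and by 1.03 with the combination (SE 0.14, adjusted P = 8.08e-06).

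ADAM12, a relative of ADAM19, showed another pattern. ADAM12 stood at 120, 126 and 116 normalised counts with DMSO, 230, 188 and 179 with tretinoin, 70.5, 62.7 and 64.2 with vemurafenib, and 130, 124 and 135 with the combination. The combination stood at the DMSO level, above every vemurafenib sample and below every tretinoin sample. ADAM12 rose by 0.71 on the log2 scale with tretinoin (SE 0.12, adjusted P = 0.00174, and 0.61 with adjusted P = 0.00446 without tretinoin replicate 1), fell by 0.87 with vemurafenib (SE 0.14, adjusted P = 4.04e-05), and with the combination stood 0.10 above DMSO (95% interval -0.16 to 0.37, adjusted P = 0.502).

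MMP16, a membrane-type MMP, had 980, 940 and 1011 normalised counts with DMSO, 1467, 1278 and 1168 with tretinoin, 1225, 1155 and 961 with vemurafenib, and 962, 1053 and 1127 with the combination. It rose with tretinoin (log2 0.41, SE 0.10, adjusted P = 0.0177, and 0.32 with adjusted P = 0.0302 without tretinoin replicate 1), a call lost without DMSO replicate 2 (adjusted P = 0.0910). ADAMTS4 rose with tretinoin by 0.50, and by 0.49 (adjusted P = 0.0300) without tretinoin replicate 1, and its call was lost without DMSO replicate 2 or tretinoin replicate 2 (adjusted P up to 0.124). The fall of MMP17 with tretinoin was at the threshold (log2 -0.39, SE 0.11, adjusted P = 0.0498). It was lost without any of 9 libraries (all DMSO and vemurafenib replicates, tretinoin replicates 1 and 2, combination replicate 2), with an adjusted P up to 0.152, and the log2 fold change was -0.27 without tretinoin replicate 1.

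The combination was then compared with vemurafenib, to ask what tretinoin changed in BRAF-inhibited cells. Here 3 members rose (6.52%) and 2 fell (4.35%), against 2.27% and 2.20% of all genes tested. ADAM12 rose by 0.98 on the log2 scale (SE 0.13, adjusted P = 0.000129), TIMP3 by 0.56 and ADAM23 by 0.38 (SE 0.08, adjusted P = 0.0111). MMP14 fell by 0.41 (SE 0.08, adjusted P = 0.00585) and MMP15 by 0.36 (SE 0.08, adjusted P = 0.00920). These counts moved with single libraries: they were 6 up and 5 down without tretinoin replicate 1, a library outside this contrast, with 17119 genes tested. Over all genes the counts were then 538 up and 634 down. The ADAM23 call was lost without vemurafenib replicate 2 or 3 or combination replicate 2 or 3 (adjusted P up to 0.0686), that of MMP14 without combination replicate 3 (adjusted P = 0.0540), and that of MMP15 without vemurafenib replicate 1 or combination replicate 3 (adjusted P up to 0.0620).

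The interaction term asks whether the tretinoin effect differed with and without vemurafenib. By edgeR's quasi-likelihood test, 0 of 46 members were called up and 2 down (4.35%), against 0.382% and 0.424% of all genes tested. At an unadjusted P under 0.05 there were 1 up and 5 down, but the share of all genes at that threshold was not computed. DESeq2 also called 0 up and 2 down, against 124 up and 130 down of the 41806 genes in that run. For ADAM19 the tretinoin effect was 1.27 on the log2 scale without vemurafenib and -0.41 with it (SE 0.14, adjusted P = 0.141), an interaction of -1.68 (SE 0.19, adjusted P = 0.000450) that stayed between -1.87 and -1.57 with each library left out in turn. For ADAMTS4 the effects were 0.50 and -0.29, an interaction of -0.79 (SE 0.17, adjusted P = 0.0340). The ADAMTS4 interaction was lost without any of 7 libraries (DMSO replicate 2, tretinoin replicate 2, vemurafenib replicates 1 and 2, and all combination replicates), with an adjusted P up to 0.123. The interaction was 0.26 for ADAM12 (95% interval -0.12 to 0.65), -0.08 for TIMP3 (-0.34 to 0.18) and -0.50 for MMP16 (-0.79 to -0.22, adjusted P = 0.104).

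**Figure D4:**
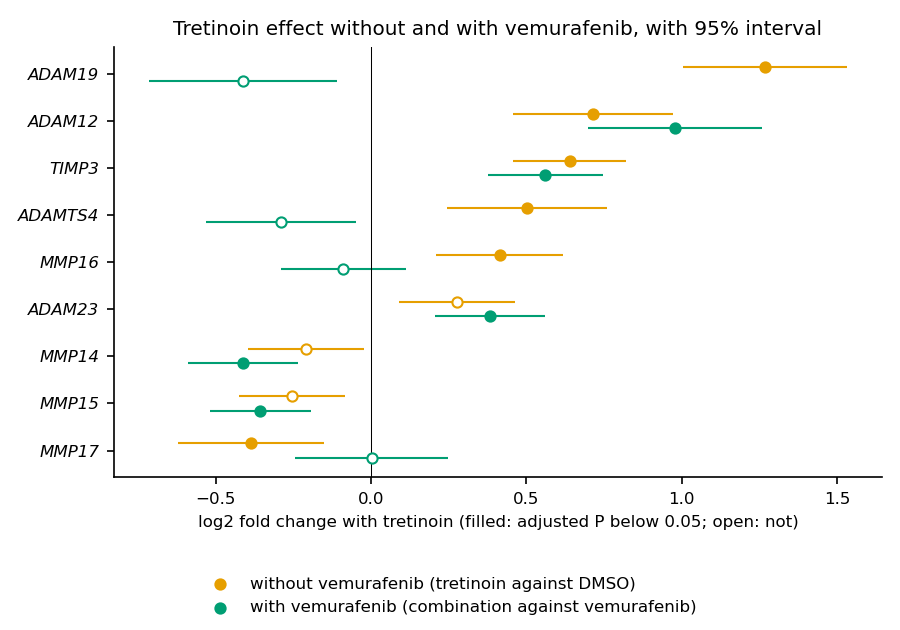
Log2 fold change with tretinoin (x axis, with 95% interval) of the 9 members called in tretinoin against DMSO, in combination against vemurafenib or in the interaction (y axis), in orange without vemurafenib and in green with it. Filled points had an adjusted P below 0.05. The points of ADAM19 lie on opposite sides of 0 (1.27 and -0.41), whereas those of TIMP3 lie at 0.64 and 0.56.

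The 250 bases before the start of ADAM19 are shown because it was the member with the largest interaction. They are chr5:157575776-157576025 on the minus strand of GRCh38.p14 (RefSeq), 5′ to 3′, with the ETS core in capitals.
ADAM19: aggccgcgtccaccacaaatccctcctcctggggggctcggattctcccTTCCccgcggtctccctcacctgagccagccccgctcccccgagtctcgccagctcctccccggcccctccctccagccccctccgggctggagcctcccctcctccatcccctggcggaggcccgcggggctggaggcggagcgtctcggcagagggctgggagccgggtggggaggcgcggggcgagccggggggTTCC
The window held 21 CpG dinucleotides at 76.4% GC. No AGGTCA, the letter run that retinoic acid receptors bind in pairs, was in this window, which says only that these letters are not there.

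Promoter windows were found for 39 of the 66 members, 40 windows in all, and ADAMTS15, ADAMTS8, MMP1 and MMP17 were not among them. The AP-1 element was searched as TGANTCA on both strands. It was in 4 of the 40 windows, against 6.57% of all 35116 promoter windows of the same length. The 4 belong to ADAMTS12, MMP7, MMP10 and MMP20. The ETS core, GGAA, was in 38 of 40 windows, against 92.7% of all windows. AGGTCA, added after the data were seen, was in 3 of 40 (ADAM30, MMP15 and TIMP4), against 12.1% of all. Of these genes only ADAMTS12 and MMP15 were called in any comparison. The ADAMTS12 window is shown as the only called member with the AP-1 element, and that of MMP14 as the more abundant of the membrane-type pair MMP14 and MMP15, which rose with vemurafenib and fell when tretinoin was added. The first is chr5:33891991-33892240 on the minus strand and the second chr14:22836335-22836584 on the plus strand of GRCh38.p14 (RefSeq), with the AP-1 element and the ETS core in capitals.
ADAMTS12: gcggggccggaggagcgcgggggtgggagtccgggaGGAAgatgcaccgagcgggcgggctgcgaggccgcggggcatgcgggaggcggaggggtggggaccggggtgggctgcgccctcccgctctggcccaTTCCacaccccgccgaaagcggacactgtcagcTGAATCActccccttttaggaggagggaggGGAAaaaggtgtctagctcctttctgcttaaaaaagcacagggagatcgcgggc
MMP14: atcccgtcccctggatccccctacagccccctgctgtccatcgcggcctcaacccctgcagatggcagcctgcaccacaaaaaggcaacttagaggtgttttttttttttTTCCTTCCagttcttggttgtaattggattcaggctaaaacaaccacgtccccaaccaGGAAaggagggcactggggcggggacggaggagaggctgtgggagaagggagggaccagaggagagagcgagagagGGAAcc
The first AP-1 base of ADAMTS12 is 84 bases before the start.

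The combination was last compared with tretinoin, to ask what vemurafenib changed in cells that had the retinoid. In this comparison 12 members rose (26.1%) and 13 fell (28.3%), against 24.1% and 25.0% of all genes tested, and the medians of members and all genes were both 0.02. TIMP3 fell by 2.13 on the log2 scale (SE 0.09, adjusted P = 2.76e-12) and ADAM19 by 2.30 (SE 0.13, adjusted P = 2.10e-10). ADAMTS15 rose by 2.54 (SE 0.09, adjusted P = 1.65e-13). ADAM21, a low member with 2 to 14 counts per sample, was called up in this comparison only (log2 1.51, SE 0.48, adjusted P = 0.0152), a call lost without tretinoin replicate 1 (adjusted P = 0.0528). This call was also lost under DESeq2. ADAM21 held 2 to 5 counts per sample with tretinoin and 13 to 14 with the combination. It passed the low-count filter through the groups with vemurafenib, where it is high, so the call is no independent support.

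Other genes that act on these proteases were read from lists of the pathway. Of 8 genes that activate MMP precursors, 6 were tested, and with vemurafenib 1 rose and 3 fell. Of all genes tested, 26.4% rose and 26.3% fell in that comparison. The log2 fold change was -2.54 for PLAT, tissue plasminogen activator, -2.52 for PLAUR, the urokinase receptor, and -0.88 for FURIN, a convertase that removes the prodomain of membrane-type MMPs and ADAMs. PCSK5, another convertase, rose by 0.82. PLAT rose by 0.44 with tretinoin and by 0.74 with the combination against vemurafenib. Among further protease inhibitors, the log2 fold change with vemurafenib was -1.12 for SERPINE2, protease nexin-1, and -1.74 for TFPI2, while RECK, a membrane inhibitor of MMPs, rose by 0.73 and A2M, which traps proteases, by 0.51. With tretinoin A2M rose by 1.07 and TFPI2 by 0.68.

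Of 9 genes that carry ADAM10 or ADAM17 through the cell, all tested, 5 rose and 2 fell with vemurafenib. The shares over all genes tested were 26.4% up and 26.3% down, for this list and those below. RHBDF1, an inactive rhomboid that carries ADAM17 to the surface, rose by 1.05, TSPAN15, a tetraspanin partner of ADAM10, by 1.72, and TSPAN10 and TSPAN33, tetraspanins of the same group, by 1.77 and 0.75, with TSPAN17 at 0.29. FRMD8, which stabilises the rhomboid complex, fell by 1.08 and TSPAN14 fell by 0.48. With the combination 4 of these trafficking genes rose and 4 fell, against 27.1% and 26.5% of all genes tested. Of 4 surface partners of MMPs, LRP1, a receptor that takes up proteases and TIMP3, rose by 1.04 with vemurafenib and CD44 fell by 0.41, and BSG and CD63 were not called. Of 6 tested ADAMTS-like genes, matrix proteins without a protease domain, ADAMTSL4 and PAPLN rose with vemurafenib (log2 0.64 and 1.75) and THSD4 fell by 1.10. The median log2 fold change with vemurafenib was -0.47 for the tested activators, 0.29 for the trafficking genes, -0.07 for the surface partners and 0.61 for the ADAMTS-like genes, against 0.02 over all genes. These medians rest on 6, 9, 4 and 6 genes and were not tested.

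Of the 46 tested members, 14 were called in no comparison: ADAM8, ADAM9, ADAM11, ADAM15, ADAMTS3, ADAMTS5, ADAMTS20, MMP2, MMP8, MMP9, MMP10, MMP23B, MMP24 and MMP25. This group holds abundant genes such as MMP2, ADAM9 and ADAM15 as well as genes with few counts. The precision differed accordingly: MMP23B, which has a near-identical copy (MMP23A, 1017 bases shared), had an SE of 0.52 with vemurafenib against 0.08 for MMP2. The other 20 members were not tested. Their highest counts in any sample were 15 for MMP13, 14 for ADAMTS2, 10 for ADAMTS19 and 7 for ADAM32. The remaining 16 had at most 5 counts in every sample: 4 at most in ADAM33, MMP20 and TIMP4, 3 in ADAM2, ADAM28 and ADAMTS14, 2 in ADAM20 and ADAMTS18, and 1 in ADAM7, ADAM18, ADAM29, ADAM30, MMP7, MMP21, MMP26 and MMP27.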

How the data were processed

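RNA-seq was done on 12 A375 samples in 4 treatment groups of 3, taken from the sample labels. The authors selected polyadenylated RNA, aligned reads to GRCh38.p10 with STAR 2.5.3a and counted fragments per GENCODE 27 gene (union mode, no use of strand), and they deposited raw counts without normalization. Fragments over exons of overlapping genes can therefore be lost or misassigned, on either strand. Gene names and positions came from GENCODE 29, in which 58084 of 58347 genes were found.

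In R 4.3.3, edgeR 4.0.16 was used for the low-count filter (filterByExpr), for TMM scaling and for a quasi-likelihood fit over the 12 samples, with group as the only term. Benjamini-Hochberg adjustment ran over 16740 genes, and the SE is the size of the log2 fold change divided by the square root of F. Normalised counts are counts at the mean TMM-scaled library size. The fit was tested on simulated data for the combination against DMSO (16311 genes), where it recovered 86 of 100 changes of 1 and 98 of 100 changes of 2 on the log2 scale, with 8 false calls. The simulated counts had the same dispersion (0.00653) for every gene and no outlying library. These figures therefore do not give the recovery or false calls in the real samples. Values were given in every sample for the TIMP genes, ADAM10, ADAM17, the 10 largest called changes with vemurafenib and with the combination, and all members called with tretinoin, in the combination against vemurafenib or in the interaction. Shared exon stretches of at least 150 bases at 98% identity were found with blastn 2.17.0, and motifs were searched in RefSeq promoters (GRCh38.p14). Members, lists and tests were chosen with earlier results of these data known. Alternatives were DESeq2 1.42.0, its size factors, other filters, a threshold of 0.1, a replicate block, fewer groups, each library left out, and, added after seeing the data, total counts as the only normalization. The list of further protease inhibitors is not reported here in full.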

Additional observations from a re-analysis of the deposited data

Results flagged for a closer look

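The tretinoin effect differed with and without vemurafenib for 2 members by the interaction test. For ADAM19 the difference was -1.68 on the log2 scale (adjusted P = 0.000450), from a rise of 1.27 with tretinoin alone to -0.41 on top of vemurafenib, with all 3 tretinoin samples above and all 3 combination samples below their respective comparison groups. For ADAMTS4 the difference was -0.79 (adjusted P = 0.0340), from 0.50 to -0.29. The range of the adjusted P over all alternatives is 1.52e-17 to 0.00368 for ADAM19 and 0.00545 to 0.123 for ADAMTS4.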

How the results depend on the processing

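Of 88 called member values, 67 kept their call under every alternative that tested the gene, 21 lost it in at least 1, and 0 changed direction. Members with fewer counts, MMP28, ADAMTS10 and MMP12 among them, were not tested in the run with at least 10 counts in every sample. The threshold of 0.1 could not remove a call. With each library left out in turn, members called with tretinoin numbered 3 to 6 up and 0 to 1 down, those in the combination against vemurafenib 2 to 6 up and 1 to 5 down, and those down in the interaction 1 to 3. Over all genes the tretinoin calls ran from 273 to 711 up and 106 to 656 down. Those in the combination against vemurafenib ran from 254 to 538 up and 203 to 634 down, and those down in the interaction from 27 to 144. The 1 member down with tretinoin (MMP17) became 2 at a threshold of 0.1 or under DESeq2, and 0 with at least 10 counts in every sample, with only the groups compared or with total counts as the only normalization. Over all genes the falls numbered 368 in the main run and, in the order of these runs, 804, 659, 299, 71 and 174. For the combination against vemurafenib, a threshold of 0.1 gave 5 up and 4 down, and only the groups compared gave 5 up and 5 down. Over all genes these runs gave 476 up and 531 down, and 584 up and 685 down, against 380 and 369 in the main run. Total counts as the only normalization, chosen after seeing the data, gave 20 up and 9 down with vemurafenib, 18 up and 9 down with the combination, and 14 up and 11 down in the combination against tretinoin, where the median of all genes moved to 0.11. Over all genes the rises called were then 6575, 6242 and 5051 in these comparisons, against falls of 2628, 2916 and 3271. With tretinoin this normalization gave 7 members up and 0 down, against 758 up and 174 down over all genes. The cause of these changes was not tested.

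Replicate numbers did not pair the samples: correlations of deviations between same-numbered samples of different groups ran from -0.143 to 0.0872 over 18 pairs. With the replicate block, 0 members were down with tretinoin and 1 was down in the interaction, where ADAMTS4 stood at -0.79 (adjusted P = 0.0700). Over all genes, 219 were down with tretinoin in that run and 36 in the interaction. The split of ADAM genes by their zinc-binding motif was not made. Depth limits the members with few counts, and mRNA was measured at a single time in 1 cell line.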
